A study of Mus musculus with 4 samples.

Results

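The genes described here are 39 genes of DNA replication and mitosis, picked by symbol from a deposited table of 29595 gene rows. Each of the 39 symbols matched exactly 1 row. Of these, 17 act in DNA replication or its control and 22 act in mitosis. RNA sequencing measured them in 4 right ventricles of adult mice, whose strain the labels give as a mixed background of C57BL/6. The hearts of 2 animals were labelled Ezh2-deficient mutant (mutant 1 and mutant 3) and those of 2 animals were labelled wild type (wild type 1 and wild type 2). The labels name no treatment, no Cre driver and no cell type in which Ezh2 was removed, and give no age beyond adult. The comparison asks which ventricular transcripts differ between hearts labelled Ezh2-deficient and hearts labelled wild type. Ezh2 is the histone methyltransferase of Polycomb repressive complex 2.

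DNA replication starts when the Mcm helicase is loaded onto origins in G1 and is fired by cyclin E and cyclin A with Cdk2, after E2F factors have switched on the genes of S phase. Mitosis is entered through cyclin B with Cdk1, and its genes are repressed in resting cells by the DREAM complex and activated late in the cycle. Heart muscle cells leave the cell cycle soon after birth, so an adult ventricle transcribes these genes weakly, and endothelial cells, fibroblasts and blood-derived cells contribute to what remains. In RNA from a whole ventricle, fewer cycling cells and less RNA per cell cannot be told apart.

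The libraries held 18177642 to 23853394 reads, of which 34.7% to 47.4% were mitochondrial. A duplex-specific nuclease had lowered the share of abundant cDNA. Sex followed genotype, since the Y-linked helicase gene Ddx3y had 754 and 659 reads in the mutant hearts but only 2 in each wild type, so genotype and sex cannot be told apart in any comparison below. Read counts are given throughout in the order mutant 1 and mutant 3, then wild type 1 and wild type 2. Ezh2 itself had 73, 70, 77 and 67 reads (edgeR adjusted p = 0.978), and its fold change was near 0 and changed sign with the scaling. The labels do not say which part of Ezh2 was deleted, so this row does not check them. Cardiomyocyte markers dominated all libraries, with 7 listed genes at 40220 to 52710 CPM (reads scaled to a common library size) in sum.

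None of the 36 genes that could be tested passed for a difference between mutant and wild-type ventricles. Top2a and Bub1b had the lowest levels in the mutants relative to the wild types, with log2 fold changes of -1.07 and -1.14. The proliferation marker Mki67 and the kinetochore gene Cenpf were several times higher in wild type 2 than in wild type 1, with both mutants in between. In edgeR's quasi-likelihood test, 36 of the 39 had enough reads, and 0 reached the adjusted threshold of 0.05, against 0.130% of all 16128 tested rows. At an unadjusted p under 0.05, 0 were higher in the mutants (6.49% of all tested rows) and 2 were lower (4.38%). DESeq2 also called 0 members (0.934% of its rows), as did limma-voom (0.0868%), with 1 and 2 members at an unadjusted p under 0.05. The lowest adjusted p among the members was 0.307.

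The tested members' fold changes lay more often below 0 than above, which describes the list and is not a test of it. The log2 fold change was below 0 in 23 tested members and above 0 in 13, with a median of -0.24 beside 0.0046 over all tested rows. In 13 of 36 members (36.1%) both mutants lay below both wild types, against 22.4% of all tested rows. In 4 members (11.1%) both mutants lay above both wild types, against 22.3%. Both mutants lay between the wild types in 11 members (30.6%), against 25.3%. Levels here are CPM on library sizes scaled by edgeR's TMM method. Scaling by total reads instead put the median over all rows at -0.28 on the log2 scale, and then 0 members lay above both wild types and 17 lay below, beside 8.49% and 40.4% of all tested rows. A member's 95% interval stayed within a 2-fold change in both directions for 5 of 36 genes, Mcm4, Mcm6, Pcna, Cdk4 and Ccna2. Over all tested rows the interval did so for 7877 of 16128. The median SE of a member's log2 fold change was 0.46, against 0.29 for all tested rows, and the members' median read count was lower (42.9 against 184.0 reads per library).

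**Figure D1:**
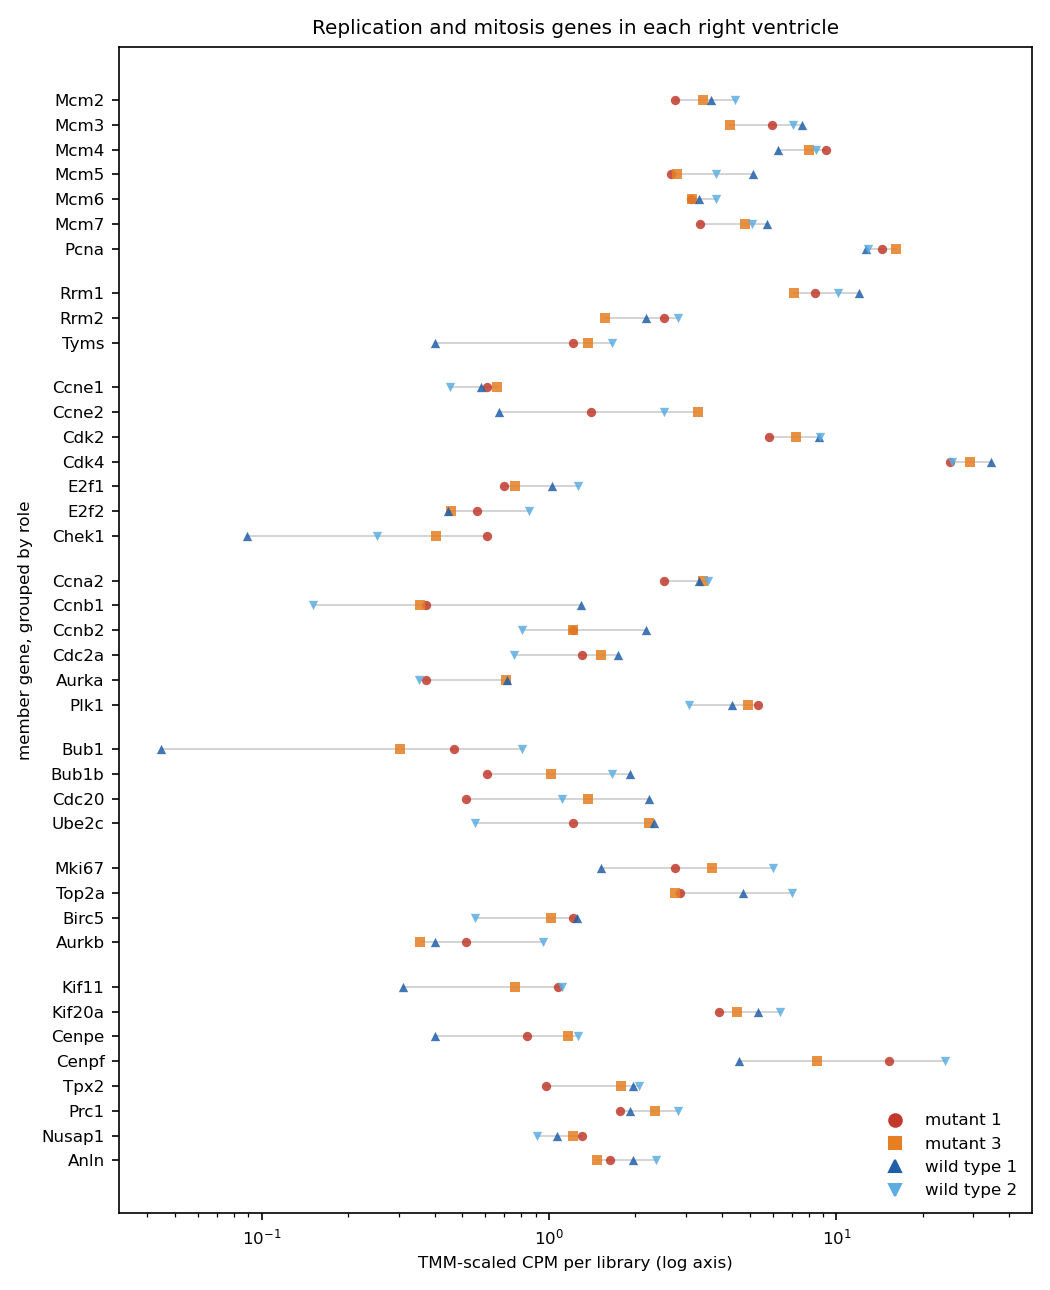
TMM-scaled CPM (log axis) of each of the 39 genes, 1 row a gene, grouped by role, with 1 point for each of the 4 hearts and a grey line from the lowest to the highest. The mutants sit between the wild types for Cenpf, Mki67 and Ube2c, and below both for Top2a and Bub1b.

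Many but not all promoters of these genes hold short motifs that the choice of genes did not use. E2F factors bind sites such as TTTCGCGC, the DREAM complex and its activating relatives bind the cell cycle homology region (CHR), TTTGAA, and NF-Y binds the CCAAT box. RefSeq promoter windows on GRCm38.p6, each of 300 bases from 250 before to 50 after a transcript start, were matched for 33 of the 39 genes (36 windows). All motifs were searched on both strands, and the E2F site in 4 spellings (TTTCCCGC, TTTCGCGC, TTTGCCGC and TTTGGCGC), whose matches can overlap each other. An E2F site was found in 35.3% of replication windows, 5.26% of mitosis windows and 2.26% of all 32851 promoter windows. The CHR was found in 11.8% of replication windows, 73.7% of mitosis windows and 17.9% of all windows. A CCAAT box was found in 77.8% of the members' windows and 37.4% of all windows. Such a match is a run of letters, not a measured binding site.

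The 160 bases before the transcript start are printed for 6 genes on which the results below turn, 5′ to 3′ on the strand of the gene, with E2F sites, CHR and CCAAT boxes of either strand in capitals:
Cenpf (chr1:189688087-189688246, minus strand): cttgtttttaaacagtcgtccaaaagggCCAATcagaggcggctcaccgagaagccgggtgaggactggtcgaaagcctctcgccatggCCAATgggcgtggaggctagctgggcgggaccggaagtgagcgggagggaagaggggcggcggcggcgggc
Mki67 (chr7:135716380-135716539, minus strand): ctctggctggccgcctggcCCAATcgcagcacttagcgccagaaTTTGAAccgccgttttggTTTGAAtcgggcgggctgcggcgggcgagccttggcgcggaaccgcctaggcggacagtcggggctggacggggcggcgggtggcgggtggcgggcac
Cdc2a (chr10:69352913-69353072, minus strand): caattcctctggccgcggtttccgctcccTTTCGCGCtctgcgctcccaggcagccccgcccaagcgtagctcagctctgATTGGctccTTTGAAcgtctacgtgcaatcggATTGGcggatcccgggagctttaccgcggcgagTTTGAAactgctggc
Ube2c (chr2:164769769-164769928, plus strand): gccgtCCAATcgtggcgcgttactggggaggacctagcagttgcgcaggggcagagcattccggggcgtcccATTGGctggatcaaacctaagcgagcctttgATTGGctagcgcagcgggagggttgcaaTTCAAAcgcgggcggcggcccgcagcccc
Top2a (chr11:99024190-99024349, minus strand): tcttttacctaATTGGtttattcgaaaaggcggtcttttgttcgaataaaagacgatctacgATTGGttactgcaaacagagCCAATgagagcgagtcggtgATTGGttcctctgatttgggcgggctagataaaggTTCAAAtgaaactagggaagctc
Mcm5 (chr8:75109349-75109508, plus strand): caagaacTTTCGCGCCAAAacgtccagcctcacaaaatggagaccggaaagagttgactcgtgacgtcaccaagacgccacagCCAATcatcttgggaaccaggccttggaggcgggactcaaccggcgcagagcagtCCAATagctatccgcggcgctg

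Mki67 carries 2 CHR matches, 116 and 98 bases before the start, and Cdc2a, the gene of Cdk1, carries 2 CHR matches and an E2F site. Ube2c and Top2a have a CHR close to the start, at 29 and 23 bases before it. In Cenpf the stretch shown holds only CCAAT boxes, and its CHR lies at base 3 of the transcript. In Mcm5 the E2F spellings of both strands overlap in 1 run of capitals, and no CHR was found. Of the 15 members with a CHR in the window, Mki67, Cenpf and Kif11 are among those listed below as at least 2-fold higher in wild type 2. Ube2c, Cdc2a and Ccnb2 are among those listed as higher in wild type 1. The other members with a CHR are on neither list.

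None of the genes of the Mcm helicase and the sliding clamp passed the test. In 5 of these 7, Mcm2, Mcm3, Mcm5, Mcm6 and Mcm7, both mutants lay below both wild types, as they did in 22.4% of all tested rows. Mcm5 (chromosome 8, 77633427 to 77652338 on mm9) had 57, 55, 115 and 76 reads. Both mutants were thus at about the same level, and wild type 1 stood highest. The mutant mean was 2.72 ± 0.0913 CPM (SD, n = 2), the wild-type mean 4.47 ± 0.917 CPM, a log2 fold change of -0.72 ± 0.32 (SE, edgeR adjusted p = 0.467). Mcm3 had 128, 84, 170 and 140 reads, with a log2 fold change of -0.51 (adjusted p = 0.566). Mcm7 had 72, 95, 129 and 101 reads, with a log2 fold change of -0.41 (adjusted p = 0.670). Mcm2 and Mcm6, other subunits of the ring, stood at -0.38 and -0.19. Mcm4 had 197, 158, 141 and 169 reads and a log2 fold change of 0.22 (95% interval -0.42 to 0.86). Differences between the subunits were not tested. Pcna, the clamp that holds DNA polymerase on its template, had 310, 319, 284 and 256 reads. Both mutants exceeded both wild types in CPM (15.3 ± 1.21 against 12.8 ± 0.165), and the log2 fold change of 0.26 had an adjusted p of 0.698. With total reads as the scale, Pcna stood at -0.029 and Mcm4 at -0.055, so their direction depends on the scaling.

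Ribonucleotide reductase and thymidylate synthase supply the building blocks of DNA, and none of their genes passed the test. Rrm1, the large subunit of the reductase (chromosome 7, 109590381 to 109617440), had 180, 141, 270 and 201 reads. Both mutants lay below both wild types, at 7.78 ± 0.884 against 11.1 ± 1.35 CPM (log2 fold change -0.51 ± 0.25, edgeR adjusted p = 0.519). The Rrm1 row overlaps AK213775 on the opposite strand (23, 18, 59 and 42 reads), so the rows may share reads if counting ignored strand. The small subunit gene Rrm2, which is tied more closely to S phase, had 54, 31, 49 and 56 reads, and the groups overlapped. Tyms had 26, 27, 9 and 33 reads. Wild type 1 alone was low, and both mutants lay between the wild types. Without wild type 1 the log2 fold changes of Rrm1, Rrm2 and Tyms were -0.38, -0.45 and -0.36. Differences between these genes were not tested.

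Among the 6 tested G1/S genes, both mutants lay below both wild types in 2, Cdk2 and E2f1 (22.4% of all tested rows). In 1, Ccne1, both mutants lay above both wild types (22.3%). Cdk2, the kinase of cyclins E and A, had 125, 143, 196 and 175 reads, or 6.54 ± 1.003 against 8.77 ± 0.0543 CPM (log2 fold change -0.42, edgeR adjusted p = 0.60). E2f1, an activator of S-phase genes, had 15, 15, 23 and 25 reads (-0.64, adjusted p = 0.683). Cdk4, the cyclin D kinase and the member with most reads, had 532, 573, 772 and 500. Wild type 1 was highest there, while wild type 2 was close to mutant 1 in CPM (25.2 and 24.8). Ccne2, a cyclin E gene, had 30, 65, 15 and 50 reads, so that the hearts of both groups differed among themselves. The other cyclin E gene, Ccne1, was low, at 13, 13, 13 and 9 reads, and its CPM was slightly higher in both mutants. E2f2 had 9 to 17 reads. Chek1, the kinase of the replication checkpoint, had 13, 8, 2 and 5 reads and did not reach the read filter of the edgeR test. The ratio of its summed reads, mutant over wild type, was 3.09 with a 95% counting interval of 1.26 to 8.59, which covers counting error only.

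Among the kinases and cyclins of mitotic entry, both mutants lay between the wild types in 3 of 5 tested genes, Ccnb2, Cdc2a and Aurka (25.3% of all tested rows). Ccnb1, the main cyclin B gene, had 8, 7, 29 and 3 reads and was not tested. Nearly all of the wild-type reads came from wild type 1, and the mutants lay between. Ccnb2 followed the same order, at 26, 24, 49 and 16 reads (log2 fold change -0.31, edgeR adjusted p = 0.874). Cdc2a had 28, 30, 39 and 15 reads (0.17, adjusted p = 0.930). Aurka, a spindle pole kinase, had 8, 14, 16 and 7 reads. Ccna2, the cyclin of S phase and early mitosis, was nearly level, at 54, 68, 75 and 71 reads. Plk1, a kinase of many mitotic steps, had 114, 97, 97 and 61 reads and lay higher in both mutants (0.47, adjusted p = 0.621). The Plk1 row spans 36804 bases, 352.7% of the gene's span in GENCODE M21, and overlaps the neighbour Dctn5 on the same strand, so the rows may share reads.

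Of the spindle checkpoint genes, Bub1b was lower in both mutants. Bub1b, the kinase-like protein BubR1 that holds back the anaphase-promoting complex (chromosome 2, 118423992 to 118467327), had 13, 20, 43 and 33 reads. That was 0.810 ± 0.288 against 1.79 ± 0.180 CPM (log2 fold change -1.14 ± 0.48, unadjusted p = 0.0456 and adjusted p = 0.446 by edgeR's quasi-likelihood test). Both mutants lay clearly below both wild types. Cdc20, which activates the complex, had 11, 27, 50 and 22 reads, and mutant 3 exceeded wild type 2. Ube2c, the ubiquitin-conjugating enzyme of the same complex, had 26, 44, 52 and 11 reads. Bub1, a checkpoint kinase, had 10, 6, 1 and 16 reads and was not tested.

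Top2a had the smallest p of all members. Top2a encodes the topoisomerase that untangles sister chromatids (chromosome 11, 98854261 to 98885503) and had 61, 54, 106 and 139 reads. Both mutants were near 2.79 ± 0.0766 CPM, and the wild types stood at 4.72 and 6.99 CPM. The log2 fold change was -1.07 ± 0.32 (95% interval -1.81 to -0.32), and edgeR gave an unadjusted p of 0.0110 and an adjusted p of 0.307. With the correction for GC content and length described below the adjusted p was 0.119, beside 0.302 on the same rows without it. Over the 13 alternatives its adjusted p ran from 0.00455, reached without wild type 1, to 1.0, and it passed in 1. Mki67, the gene of the Ki-67 protein that coats mitotic chromosomes, had 59, 73, 34 and 120 reads (log2 fold change -0.22, adjusted p = 0.919). Birc5, the survivin subunit of the chromosomal passenger complex, had 26, 20, 28 and 11 reads, and its partner kinase gene Aurkb had 11, 7, 9 and 19.

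Of the 8 genes of spindle, kinetochore and cytokinesis, 3 had both mutants below both wild types (22.4% of all tested rows), Kif20a, Tpx2 and Anln. Another 3 had both mutants between the wild types, and 1, Nusap1, had them above. Kif20a, a kinesin of the late spindle, had 84, 89, 120 and 127 reads (log2 fold change -0.48, edgeR adjusted p = 0.587). Its row overlaps Cdc23 on the opposite strand (370, 366, 513 and 413 reads), so the rows may share reads if counting ignored strand. Anln, the scaffold of the contractile ring, had 35, 29, 44 and 47 reads (-0.47, adjusted p = 0.689). Tpx2, a factor of spindle assembly, had 21, 35, 44 and 41 reads (-0.55, adjusted p = 0.691). Cenpf (chromosome 1, 191464493 to 191511965) had the most reads of the mitosis genes, at 326, 169, 103 and 473. It ran from 4.59 CPM in wild type 1 to 23.8 CPM in wild type 2, and both mutants lay inside that range. The motor genes Kif11 (23, 15, 7 and 22 reads) and Cenpe (18, 23, 9 and 25 reads) shared its low value in wild type 1. Prc1 (38 to 56 reads) and Nusap1 (18 to 28 reads), which bundle and anchor microtubules, varied little.

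The wild-type hearts also differed from each other. They were at least 2-fold apart in 11 of 36 tested members (30.6%), against 13.8% of all tested rows. Of the 11, 9 were among the 20 tested mitosis genes (45.0%) and 2 among the 16 tested replication genes (12.5%). The mutants were at least 2-fold apart in 2 members (5.56%), Ccne2 and Cdc20, against 2.76% of all rows. Mitosis members also had fewer reads than replication members (medians 31.0 and 75.0 reads per library). The part of read number in these gaps was not tested, nor was the difference between the sets. The gap was not in 1 direction. Wild type 2 was higher in 7 of the 11, Tyms, Ccne2, Mki67, Aurkb, Kif11, Cenpe and Cenpf. Wild type 1 was higher in 4, Ccnb2, Cdc2a, Ube2c and Birc5. Cenpf was 5.19 times and Mki67 3.99 times as high in wild type 2 as in wild type 1, while Ube2c was 4.18 times as high in wild type 1. The authors' deposited table of library pairs gives a p under 0.001 with at least a 2-fold ratio for 8 of the 39 members between the wild types, and for 1, Cenpf, between the mutants (2.25% of all tested rows). Of the 36 tested members the authors' deposited table gives 6 between the wild types, beside 10.7% of all tested rows. Each such p compares single libraries and so holds no spread between hearts of a group.

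**Figure D2:**
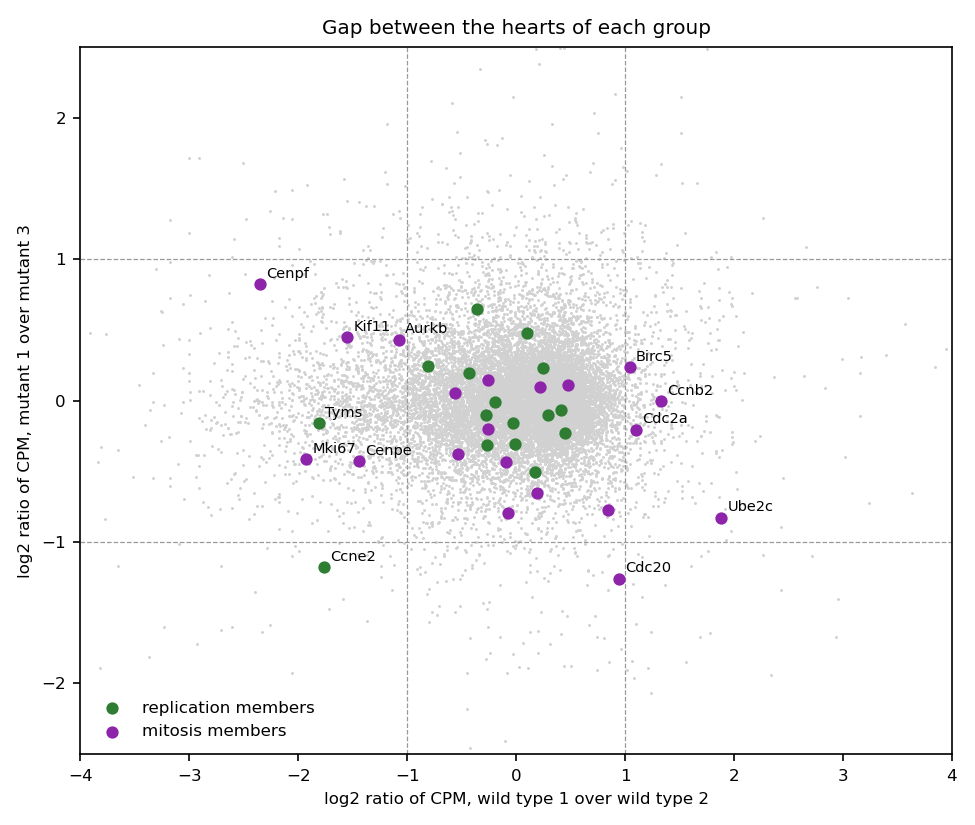
Log2 ratio of CPM between the wild types (horizontal) and between the mutants (vertical) for tested members (green, replication; purple, mitosis) over all tested rows (grey, outliers beyond the axes not shown), with dashed lines at a 2-fold gap. Beyond a 2-fold gap lie 11 members between the wild types and 2 between the mutants.

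The direction of Cenpf and Mki67 turned with the wild-type heart left out. A fit without wild type 1 gave Cenpf a log2 fold change of -0.995 ± 0.247 (edgeR adjusted p = 0.0160) and Mki67 one of -0.90 ± 0.28 (adjusted p = 0.0467). A fit without wild type 2 turned both, to 1.37 ± 0.31 for Cenpf (adjusted p = 0.00679) and 1.08 ± 0.37 for Mki67 (adjusted p = 0.0490). Top2a stood at -1.32 without wild type 1 and -0.76 without wild type 2, and Bub1b at -1.04 and -1.25. In these genes both mutants lay below both wild types, so leaving out either wild type could hardly turn the sign. Without wild type 1, 3 of 38 tested members passed, Mki67, Top2a and Cenpf, all lower in the mutants. Without wild type 2, 5 of 39 passed, of which Ccne2, Mki67 and Cenpf were higher and Mcm5 and Rrm1 lower. These fits take a lone wild-type heart to vary as the mutants do, and called 12.2% and 22.0% of all rows they tested, shares above those of the members.

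**Figure D3:**
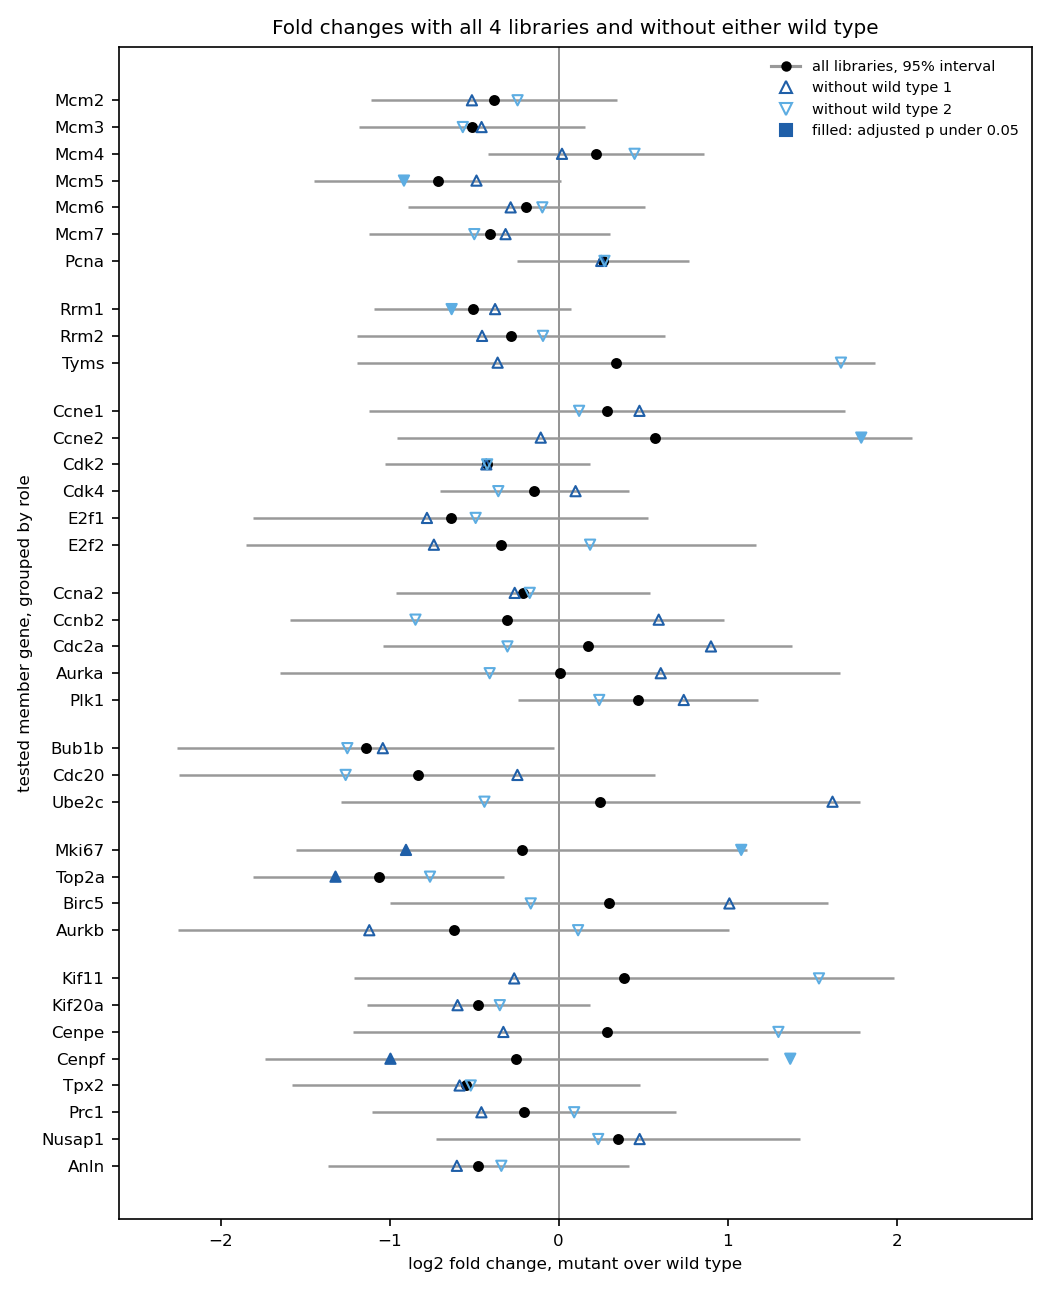
Log2 fold change, mutant over wild type, of the 36 tested members with all 4 libraries (black, with 95% interval) and after leaving out wild type 1 (upward triangles) or wild type 2 (downward triangles), filled where the adjusted p is under 0.05. The 2 triangles of Cenpf and of Mki67 lie on opposite sides of 0. Those of Top2a and Bub1b, where both mutants lay below both wild types, lie on the same side.

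Summed over genes, the replication reads were lower in both mutants than in both wild types, and the mitosis reads were high in wild type 2. The 17 replication genes together had 1890, 1866, 2355 and 1977 reads, or 88.2, 94.6, 104.9 and 99.5 CPM. Both mutants lay below both wild types, with a mutant mean 0.895 times the wild-type mean (log2 ratio -0.16). Over total reads the log2 ratio was -0.45, and over non-mitochondrial reads it was -0.31. Cdk4 made up 29.4% of these reads, and without it the log2 ratio was -0.17. The 22 mitosis genes had 1028, 921, 1022 and 1353 reads, or 47.97, 46.7, 45.5 and 68.1 CPM. Wild type 1 was thus level with the mutants, and wild type 2 stood at 1.5 times the level of wild type 1. The log2 ratio of the group means was -0.26, but -0.52 without wild type 1 and 0.057 without wild type 2. Without Cenpf, which held 24.8% of the mitosis reads, the other 21 genes summed to 32.8, 38.1, 40.9 and 44.3 CPM, and without Mki67 as well to 30.01, 34.4, 39.4 and 38.2 CPM. Both mutants lay below both wild types in these shortened sums, but not in the full sum. Wild type 1 was the lowest heart for both Cenpf and Mki67, whose gap was seen in these same data. Taking them out thus lowers the mutants relative to wild type 1, and the order of the shortened sums follows in part from that choice. With 2 hearts a group an exact permutation test cannot go below a two-sided p of 0.333, so no test was made on the sums.

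**Figure D4:**
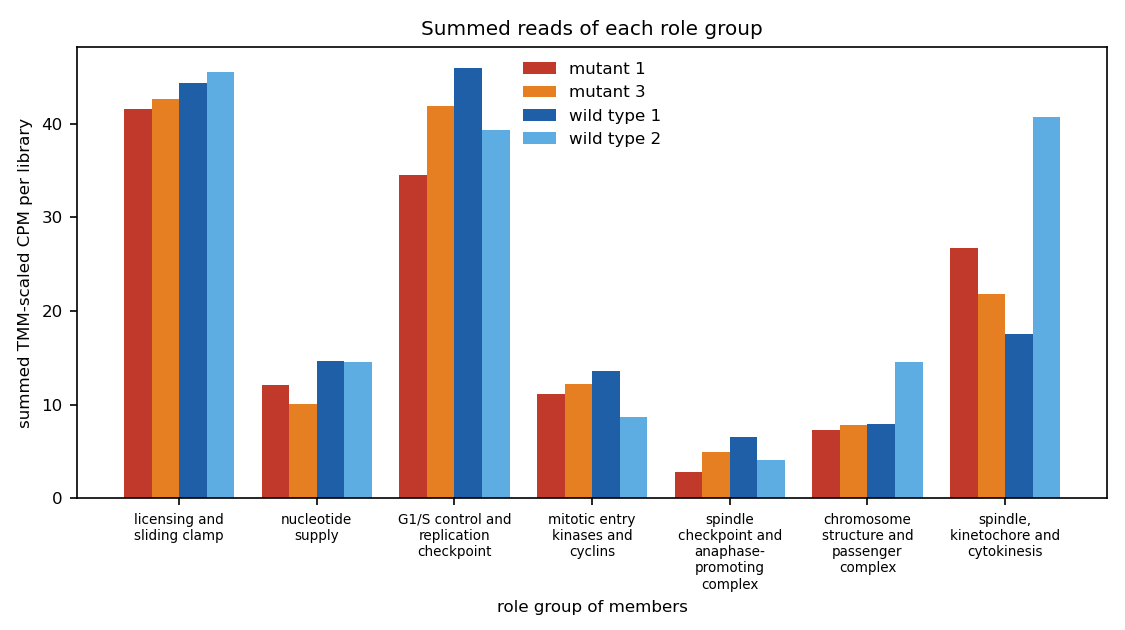
Summed TMM-scaled CPM of the members of each role group, 1 bar for each of the 4 hearts. Wild type 2 stands above the other hearts for spindle, kinetochore and cytokinesis genes (40.7 CPM) and for chromosome structure and passenger genes (14.5 CPM), and wild type 1 for the mitotic entry genes (13.6 CPM).

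Transcript length and GC content moved with the gap between the wild types. Across the 36 tested members, Spearman's rho of the log2 ratio of wild type 1 over wild type 2 was -0.50 with transcript length and 0.44 with GC content. Across the 13016 tested rows with a matched transcript, rho was -0.31 and 0.54. Genes share the same libraries and are not independent, so these values describe the libraries. The members higher in wild type 1 by at least 2-fold had a median transcript length of 2763 bases, and those higher in wild type 2 one of 4819 bases, up to 11130 bases for Cenpf. The Mki67 row spans 9305 bases, 35.0% of the gene's span in GENCODE M21, and the Ube2c row 2974 bases, 33.3%. Their counts may thus cover only part of the transcript. After a correction for GC content and length, chosen after the data were seen, Cenpf was 2.48 times and Mki67 2.31 times as high in wild type 2 as in wild type 1, and Ube2c 3.35 times as high in wild type 1. The wild types were then at least 2-fold apart in 10 of 36 members (27.8%), beside 8.13% of the 13016 rows, against 11 members and 12% of the same rows before it. The correction called 0 members.

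**Figure D5:**
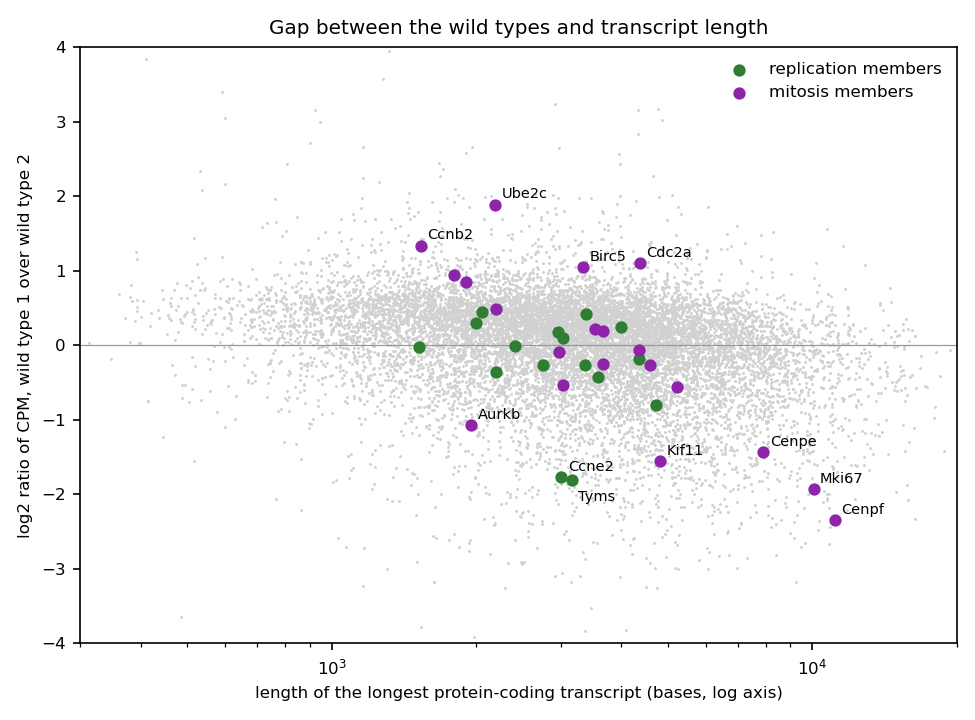
Log2 ratio of CPM, wild type 1 over wild type 2, against the length of the longest protein-coding transcript (log axis) for tested members (green, replication; purple, mitosis) over all tested rows with a length (grey). Cenpf and Mki67 lie at the long end and low, and Ube2c and Ccnb2 lie among shorter transcripts and high.

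Further genes of replication and mitosis, listed by function, were read from the same fit. Of 48 other replication genes, 46 were tested. At an unadjusted p under 0.05 in edgeR, 3 were higher in the mutants (6.49% of all tested rows) and 0 were lower (4.38%). After adjustment 0 passed in edgeR, while DESeq2 called 1 (0.934% of its rows). That gene was Rpa3, the small subunit of the protein that coats single-stranded DNA, with 301, 386, 90 and 113 reads. Both mutants were far above both wild types, at 16.8 ± 3.91 against 4.85 ± 1.19 CPM (log2 fold change 1.79 ± 0.30, edgeR adjusted p = 0.0866). DESeq2 gave Rpa3 an adjusted p of 0.00053. Over 13 alternatives the adjusted p of Rpa3 ran from 0.000111 to 0.161 and passed in 6, and the GC and length correction lowered its log2 fold change to 1.11. Timeless, of the fork protection complex, had 158, 193, 105 and 90 reads (0.90, adjusted p = 0.326). Gmnn, the inhibitor of origin licensing, had 396, 394, 248 and 259 reads (0.68, adjusted p = 0.344). The list's median was 0.055 on the log2 scale.

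Of 50 other mitosis genes, 38 were tested and 0 passed in edgeR, DESeq2 or limma-voom. At an unadjusted p under 0.05 in edgeR, 2 were higher in the mutants (6.49% of all tested rows) and 5 were lower (4.38%). The list's median log2 fold change was -0.21. Cenpa, the histone of the centromere, had 787, 597, 507 and 340 reads (log2 fold change 0.76, edgeR adjusted p = 0.329). Ccnf, a cyclin of a ubiquitin ligase, had 10, 5, 33 and 21 reads (-1.79, adjusted p = 0.351). Wee1, the kinase that holds Cdk1 inactive, had 67, 62, 137 and 101 reads (-0.83, adjusted p = 0.365). These 3 genes were picked for the smallest unadjusted p of the list, and in each the groups did not overlap. The direction differed between them. Of all tested rows, 22.3% had both mutants above both wild types and 22.4% had them below.

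The regulators upstream of the members had a median fold change near that of all rows. Among 18 genes of the E2F, Rb and DREAM families, 17 were tested and 0 passed in edgeR, DESeq2 or limma-voom, with 0 at an unadjusted p under 0.05 in each of the 3 tests. Their median log2 fold change was -0.077. Both mutants lay below both wild types in 6 of the 17 (22.4% of all tested rows) and above them in 0 (22.3%). Foxm1, an activator of mitotic genes, had 15, 23, 40 and 30 reads (-0.82, edgeR adjusted p = 0.579). Tfdp2, a partner of E2F factors, had 289, 233, 382 and 331 reads (-0.41, adjusted p = 0.545), and the repressive E2f4 had 324, 296, 473 and 350 (-0.36, adjusted p = 0.595). Cdkn2a, whose products hold back Cdk4 and p53 turnover, had 70, 48, 3 and 1 reads in the same hearts and passed the test (log2 fold change 4.84, edgeR adjusted p = 0.0463). Over 13 alternatives the adjusted p of Cdkn2a ran from 2.1e-05 to 0.109, and it passed in 8.

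Markers of other cell types ran in another order over the hearts than the mitosis reads. In order of heart, the summed level of 7 endothelial genes was 491.0, 622.1, 592.7 and 535.2 CPM. That of 6 fibroblast genes was 719.9, 828.2, 867.4 and 722.0 CPM, and that of 7 macrophage genes was 78.2, 62.2, 79.2 and 62.2 CPM. Each of these sums was lower in wild type 2 than in wild type 1, while the mitosis sum was higher there. Without Cenpf and Mki67 the mitosis sum was slightly lower in wild type 2 as well, at 38.2 against 39.4 CPM in wild type 1. Both of these genes were highest in wild type 2, so taking them out lowers that heart's sum most. The listed genes did not all follow their sums. Emcn, Egfl7, Lum, Mrc1 and Cd163 were higher in wild type 2 than in wild type 1, and the other genes of these lists were lower there or level. The 5 lymphocyte genes summed to 2.38, 6.59, 3.70 and 1.51 CPM, with Cd3d at 0 in wild type 2. The 4 smooth muscle genes summed to 103.6, 105.0, 167.4 and 120.3 CPM. Acta2 set that order, while Myh11 and Tagln had both mutants above both wild types. The 7 cardiomyocyte genes summed to 45800, 52710, 43930 and 40220 CPM, with both mutants above both wild types for Myl2 and Tnnt2 and below them for Myh6 and Ryr2. Of 5 skeletal muscle genes, the sum was 179.5 CPM in mutant 1 and 2.97 to 3.25 CPM elsewhere. No tested marker on these lists passed in edgeR's test, and the part of cell makeup in the members' levels was not tested.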

How the data were processed

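RNA was sequenced from the right ventricle of 4 hearts. Per the labels' protocols, libraries from polyadenylated RNA were treated with a duplex-specific nuclease, which can shrink differences of abundant transcripts. TopHat 1.2.0, Cufflinks and mm9 are named, per the submitters' processing notes. For the counting rule, strand use and annotation, the sources used here give nothing. The authors' table, as deposited, gives whole-number read counts per row, which were the input. It also gives the authors' CPM, which equals reads scaled by the column total, and the authors' fold ratio and the authors' p-value for each library pair, which are quoted only where named. Groups come from sample titles, and p-values of the fits with all 4 hearts measure the spread between these hearts. The authors' p-values compare single libraries and hold no spread between hearts of a group.

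The test of counts was edgeR 4.0.16 under R 4.3.3 (quasi-likelihood, TMM, filterByExpr, all 4 libraries, two-sided) and Benjamini-Hochberg adjustment over 16128 rows. The SE comes from the F statistic. Alternatives were DESeq2 1.42.0, limma-voom (limma 3.58.1), other scalings and filters, and leaving out each library. Each test was tested on simulated data first. The members and lists were chosen with earlier results of these data known. By the naming rule, reads in every library are given for called members, for the 3 of smallest unadjusted p and the 1 with most reads in each role group, and for members whose groups do not overlap with an unadjusted p under 0.05. The other members' reads were added to account for all. Of other lists, called genes (up to 6) or else the 3 of smallest unadjusted p are named, and Ezh2 and Cdkn2a once. Transcript lengths and GC content come from the longest protein-coding GENCODE M21 transcript by name, and coordinates of rows are mm9, counted from 1. Rows overlapping a member (10 members) may share reads, as may pseudogene copies of Pcna, Tyms, Ccnb1 and Ccnb2. Among the overlaps are Cdk4 with Tspan31, Cdc20 with Elovl1, Ccna2 with Exosc9, Kif20a with Cdc23 and Rrm1 with AK213775. Promoter sequences are RefSeq's, on GRCm38.p6, and 6 members without a window there are Ccna2, Tpx2, Kif20a, Ccne2, Mcm4 and Aurkb. A further marker list is not reported here.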

Additional observations from a re-analysis of the deposited data

How the results depend on the processing

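Members were called only without wild type 1 or wild type 2; leaving out each library gave 0 to 5 called members, 63 to 3675 called rows of all tested (21 with all libraries), 0 to 10 genes of the wider replication list and 0 to 8 of the wider mitosis list. All rows gave 205 calls by DESeq2, 156 by total counts alone, 317 with no filter, and 3 without rows on X and Y and rows above 1% of a library. With the GC and length correction 63 rows were called, beside 16 of the same 13016 rows without it. The wider replication list had 1 call by DESeq2, 1 by total counts alone and 1 with no filter. By total counts the members' median log2 fold change was -0.51. The log2 ratio of summed reads was -0.48 for all members and -0.45 for replication members over total reads, and -0.35 and -0.31 over non-mitochondrial reads.

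Changes of sign involved a called value only for Cenpf and Mki67, without wild type 2. By total counts Mcm4 stood at -0.055, Pcna at -0.029, Ccne1 at -0.0022, Cdc2a at -0.13, Aurka at -0.31, Ube2c at -0.076, Cenpe at -0.011 and Ezh2 at -0.26. With the GC and length correction Pcna stood at -0.037, Aurka at -0.068 and Ezh2 at -0.11, and without X, Y and abundant rows Aurka at -0.016 and Ezh2 at -0.0010. By limma-voom Mki67 stood at 0.11 and Cenpf at 0.16. Leaving out each library gave log2 fold changes of -0.64 to 0.046 for Rrm2, -0.36 to 1.67 for Tyms, -0.16 to 1.79 for Ccne2, -0.36 to 0.10 for Cdk4, -0.74 to 0.19 for E2f2, -0.42 to 0.031 for Ccna2, -0.85 to 0.59 for Ccnb2, -0.30 to 0.90 for Cdc2a, -0.47 to 0.60 for Aurka, -0.44 to 1.62 for Ube2c, -0.90 to 1.08 for Mki67, -0.17 to 1.01 for Birc5, -1.12 to 0.12 for Aurkb, -0.26 to 1.54 for Kif11, -0.33 to 1.30 for Cenpe, -0.995 to 1.37 for Cenpf and -0.46 to 0.092 for Prc1. Cdkn2a kept its direction and passed in 8 of 13 alternatives. The cause was not tested. No paired analysis was possible because the groups share only replicate number 1. Few reads limit Chek1, Ccnb1 and Bub1, for which edgeR gave no test with all libraries.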
